A study of Homo sapiens with 5 samples.

Results

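The EPHA receptors are the class of Eph receptor tyrosine kinases that mainly bind ephrin-A ligands. The 9 genes EPHA1 to EPHA8 and EPHA10 were chosen by symbol from the 14812 genes with a named probe set in the deposited table. All 9 were measured. Where a gene has several probe sets, the one with the highest mean log2 intensity was to be taken, but each EPHA gene had 1 probe set, so no choice was made on intensity. The family was selected on earlier results of the same arrays, in which EPHA3 and EPHA6 stood among the largest increases. The values of those 2 genes in the comparison are therefore given as a description. Their start regions, chromosome neighbours and nearest profiles were examined because of those increases and are descriptions as well.

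The arrays came from LNCaP cells, an established human prostate cancer line with luminal features. All cells carried a retroviral hairpin under puromycin selection, received 10 Gy of ionizing radiation and were harvested 24 h later. The control group (shControl, 2 arrays) carried a scrambled hairpin, and the depleted group (shRB, 3 arrays) a hairpin against RB1, the retinoblastoma tumour suppressor. How many hairpin sequences were used, whether cells were pools or clones, and whether replicate arrays trace to separate cultures is not in the labels. The spread behind each p-value is thus that between arrays and may be technical. No unirradiated array was analysed here.

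Eph receptors sit in the plasma membrane and are activated by ephrins on a neighbouring cell, so signalling needs contact between cells. Binding clusters the receptors, switches on their kinase domains and, through small GTPases and SRC-family kinases, changes adhesion, repulsion and cell shape. Ephrin-A ligands are held by a lipid anchor and ephrin-B ligands span the membrane, and both can signal back into the cell that carries them. In the nervous system the EPHA class guides axons, and in epithelial tumours its members have been linked both to growth and to its restraint.

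Values are log2 of the deposited probe set intensity. The lowest deposited value of every array lay just above 16, a log2 of 4, as an added constant of 16 would give, so differences of dim genes are compressed. Intensities depend on the probes, so no level of 1 gene is set against that of another; the median over genes is used only to filter out dim ones in an alternative fit. RB1 itself had a log2 intensity of 5.81 and 5.70 on the shControl arrays and 5.16, 5.28 and 5.20 on the shRB arrays, with no overlap, a difference of -0.54 (limma over all genes, adjusted p = 0.0967). The cell line was checked on 8 measured luminal prostate markers of 14 listed, with group means of 6.33 to 10.13 in shControl and 6.56 to 10.08 in shRB. The 3 measured fibroblast markers lay between 4.27 and 4.97 in every group mean. Of the 4 endothelial markers, VWF (6.26 in shControl, 5.61 in shRB) stood farthest above the floor, and of the 3 blood markers CD68 (6.84 and 7.06). No marker of these 3 lists passed, and their part in the results was not tested.

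Of the 9 EPHA receptors, 2 were higher in shRB and 0 lower at an adjusted p under 0.05 (limma, Benjamini-Hochberg over all 14812 genes). EPHA3 and EPHA6 rose by 1.56 and 1.50 on the log2 scale, and the other 7 differed by -0.51 to 0.33 and did not pass. Of all genes tested, 1.07% passed in either direction and 0.695% passed as higher. Because the family was selected with those increases known, nothing is read from its share of calls. The median difference of the 9 genes was 0.08, against 0.02 over all genes. Differences were positive in 6 of the 9, against 53.8% of all genes. EPHA3 and EPHA6 are in both figures, so nothing is read from these. The other 7 had a median of 0.04 and 4 positive differences (57.1%). At an unadjusted p under 0.05 stood 5 of the 9, against 18.1% of all genes. EPHA3 and EPHA6 are among the 5, so nothing is read from that count either. Of the other 7 receptors, 3 stood there (42.9%).

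**Figure D1:**
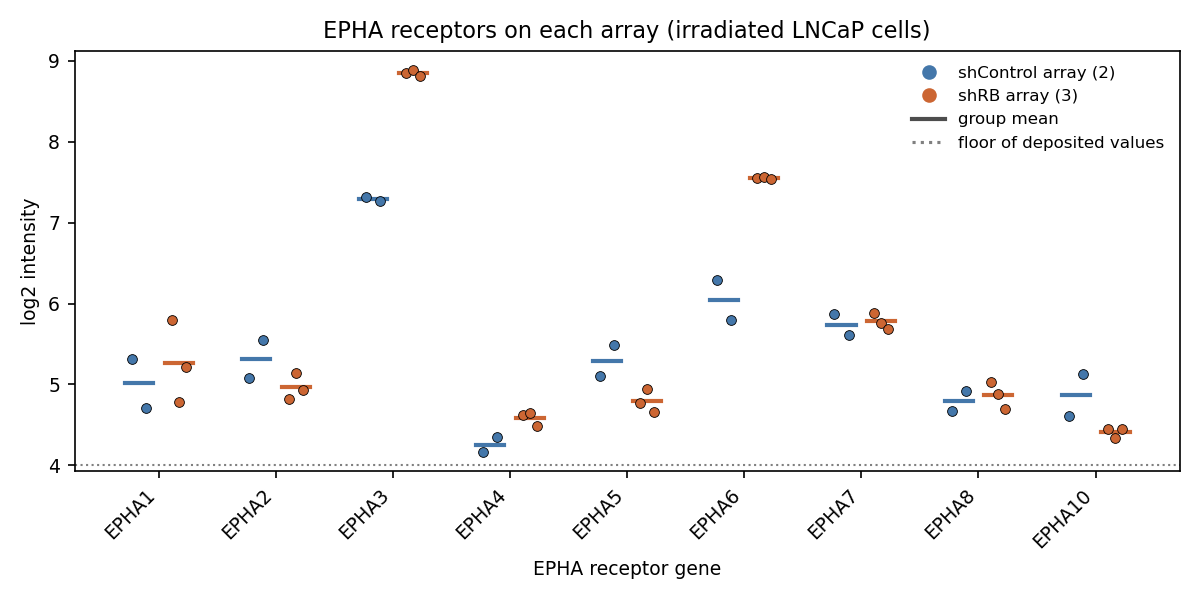
Log2 intensity (vertical axis) of the 9 EPHA receptors on each array, with shControl arrays in blue, shRB arrays in orange, a bar at each group mean and a dotted line at the floor of 4. All shRB points of EPHA3 and EPHA6 lie at 7.54 or higher, above both shControl points of the same gene. The group means of the other receptors lie between 4.26 (EPHA4, shControl) and 5.78 (EPHA7, shRB). Heights of different genes are not comparable.

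EPHA3, a receptor with high affinity for ephrin-A5, was measured by probe set 16942958 on chromosome 3. It read 7.32 and 7.27 on the shControl arrays and 8.85, 8.89 and 8.82 on the shRB arrays. All shRB arrays lay above both shControl arrays, the gap between the groups being 1.50, and each group was tight, with ranges of 0.05 and 0.07. The means were 7.29 ± 0.04 (SD, n = 2) and 8.85 ± 0.04 (SD, n = 3), a difference of 1.56 (SE 0.14, 95% interval 1.25 to 1.87, limma adjusted p = 0.000485), or 2.95-fold as deposited. On the linear scale with 16 taken off, the mean intensity was 140.7 in shControl and 446.4 in shRB, 3.17-fold. Among the 14812 differences, EPHA3 held rank 2 of the increases. Since an array averages the whole culture, more transcript per cell and more cells with the transcript cannot be told apart, here or for any gene that follows.

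EPHA6, a receptor best known from the brain, was measured by probe set 16943047, also on chromosome 3. It read 6.30 and 5.80 on the shControl arrays and 7.55, 7.56 and 7.54 on the shRB arrays. The shRB arrays agreed within 0.02 while the shControl arrays lay 0.50 apart, and the groups were separated by 1.24. The means were 6.05 ± 0.35 (SD, n = 2) and 7.55 ± 0.01 (SD, n = 3), a difference of 1.50 (SE 0.17, 95% interval 1.13 to 1.88, limma adjusted p = 0.00194). This was 2.83-fold as deposited and 3.35-fold with 16 taken off, from a linear mean of 51.1 to 170.9, and rank 5 among the increases. The size of the EPHA6 difference followed the control array used: it was 1.75 without shControl replicate 1 and 1.25 without shControl replicate 2, and it passed in both fits.

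EPHA3 passed in all 14 alternatives, with differences of 1.54 to 1.64 and an adjusted p of up to 0.0496. EPHA6 passed in 13 of 14. With 16 subtracted and 4 added before the logarithm, its difference was larger, 1.70, but its adjusted p was 0.0886. Across all genes that setting called 4 higher and 9 lower in place of 103 and 56. Averaging probe sets, testing each on its own and leaving out dim genes could not move either difference. Both genes have 1 probe set and were kept as not dim. With the replicate number as a block, both differences were those of the fit without shRB replicate 3. Leaving out single arrays gave adjusted p-values of 0.00234 to 0.0157 for EPHA3 and 0.00111 to 0.0483 for EPHA6.

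**Figure D2:**
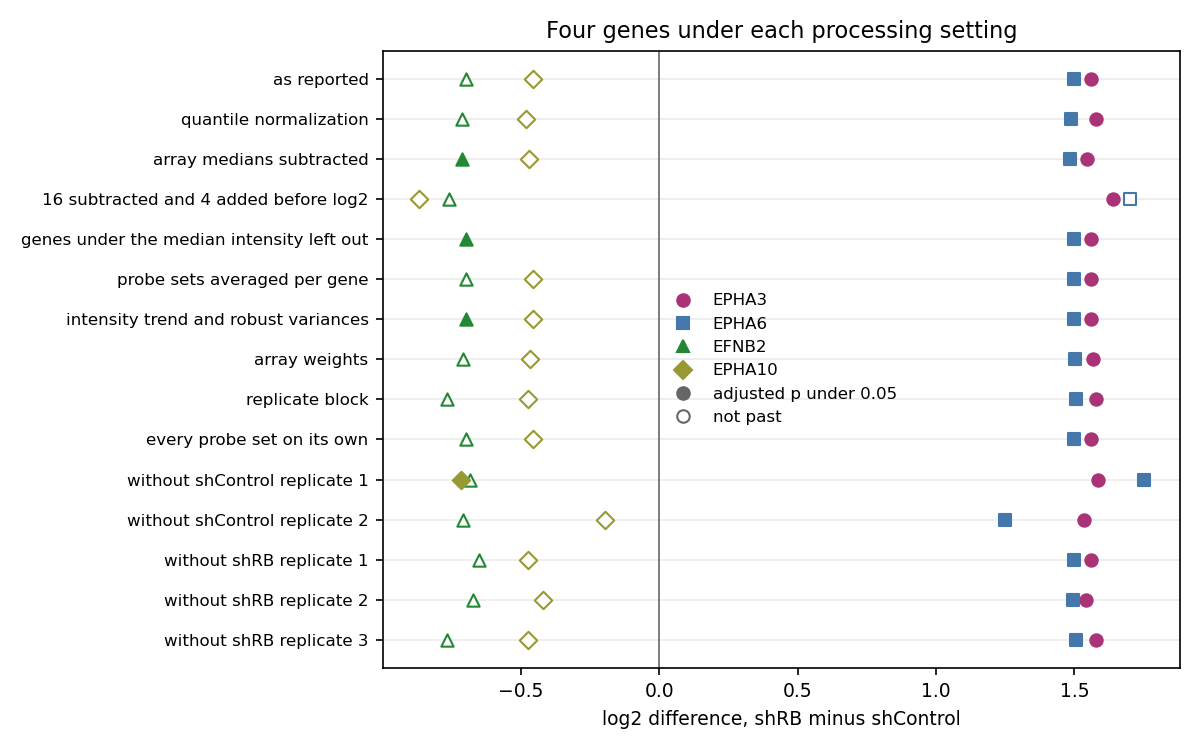
Log2 difference, shRB minus shControl (horizontal axis), of EPHA3, EPHA6, EFNB2 and EPHA10 as reported and under each alternative; filled symbols have an adjusted p under 0.05. EPHA3 is filled throughout, EPHA6 is open with 16 subtracted, EFNB2 is filled in 3 settings and EPHA10 only without shControl replicate 1; EPHA10 has no point where genes under the median were left out.

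The start regions of the receptors that rose together are shown because RB1 restrains E2F factors, which bind a short GC-rich motif near start sites. Sequences are the 250 bases before each annotated start from RefSeq on GRCh38.p14, both genes on the plus strand, with CpG pairs in capitals. EPHA3 has 1 annotated start, with its window at chr3:89107371-89107620. EPHA6 has 2, with windows at chr3:96814344-96814593 and chr3:97439357-97439606.
EPHA3: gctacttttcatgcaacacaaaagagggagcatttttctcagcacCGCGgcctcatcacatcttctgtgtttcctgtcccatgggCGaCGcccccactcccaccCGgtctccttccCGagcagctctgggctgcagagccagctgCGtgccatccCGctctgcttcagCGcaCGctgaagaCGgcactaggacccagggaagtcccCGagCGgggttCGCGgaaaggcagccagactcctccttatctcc
EPHA6 start 1: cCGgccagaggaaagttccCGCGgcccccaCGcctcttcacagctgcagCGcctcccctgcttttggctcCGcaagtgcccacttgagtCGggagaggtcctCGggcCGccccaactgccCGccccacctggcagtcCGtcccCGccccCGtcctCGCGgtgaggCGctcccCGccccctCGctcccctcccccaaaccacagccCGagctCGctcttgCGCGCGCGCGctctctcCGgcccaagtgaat
EPHA6 start 2: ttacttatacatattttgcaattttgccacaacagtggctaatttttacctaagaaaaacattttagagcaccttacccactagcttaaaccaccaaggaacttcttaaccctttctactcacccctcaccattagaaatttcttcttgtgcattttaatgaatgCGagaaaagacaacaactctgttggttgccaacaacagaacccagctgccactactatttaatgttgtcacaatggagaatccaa

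The EPHA3 window holds 15 CpG pairs and that of the first EPHA6 start 26, against a median of 11 over 35116 windows of the same length. Fewer pairs are found in 57.1% and 80.4% of windows, so EPHA3 lies near the middle. The second EPHA6 start has 1, and 6.1% of windows have fewer. The E2F consensus was searched in its 4 spellings TTTCCCGC, TTTGGCGC, TTTCGCGC and TTTGCCGC on both strands. It occurs in 2.79% of all windows and in none of the 13 windows of the 8 EPHA genes with an entry. That says only that these letters are not in these windows. EPHA10 was not matched.

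**Figure D3:**
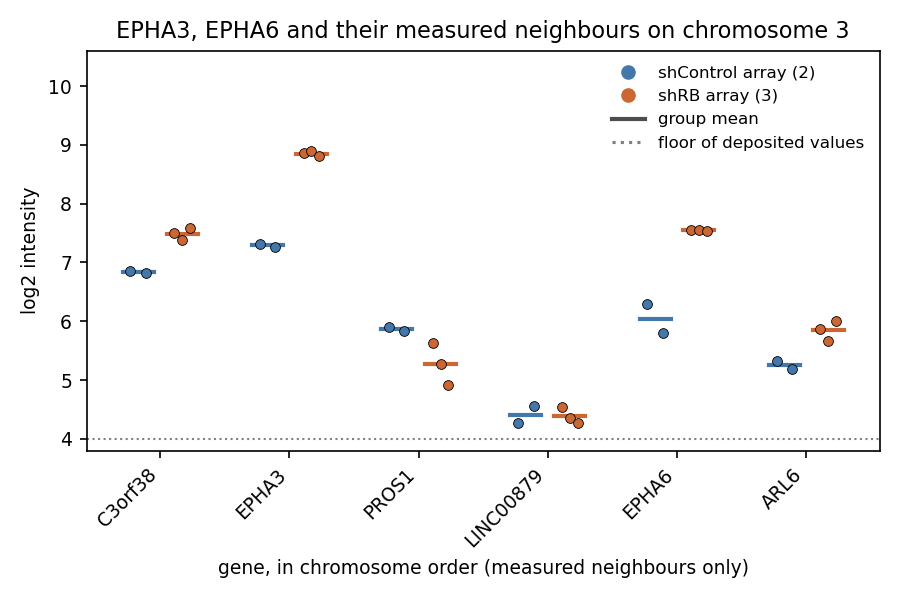
Log2 intensity on each array (shControl blue, shRB orange, bars at group means, dotted floor at 4) of EPHA3, EPHA6 and the nearest measured gene on either side of each, in chromosome order. The shRB points of C3orf38 and ARL6 lie above their shControl points, those of PROS1 lie below, and those of LINC00879 overlap.

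EPHA3 and EPHA6 lie on the same chromosome, so the nearest measured gene on each side was examined. Next to EPHA3, C3orf38 had log2 intensities of 6.85 and 6.82 in shControl and 7.50, 7.39 and 7.59 in shRB, a difference of 0.65 (limma adjusted p = 0.0638). On its other side PROS1, which encodes the anticoagulant protein S, read 5.90 and 5.84 against 5.63, 5.28 and 4.91, a difference of -0.60 (adjusted p = 0.154). The arrays of both genes did not overlap between groups, in opposite directions. C3orf38 passed in 2 of 14 alternatives and PROS1 in 0. Next to EPHA6, the noncoding LINC00879 differed by -0.01 (adjusted p = 0.974), and ARL6, a small GTPase of the ciliary BBSome pathway, by 0.59 (adjusted p = 0.0975), passing in 1 alternative. None of the 4 neighbours passed in the fit reported. Whether they differ from EPHA3 and EPHA6 was not tested.

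The genes whose profiles over the 5 arrays were nearest to EPHA3, by Euclidean distance after centring each gene on its mean, were PCDH20, a protocadherin (distance 0.16), RALYL (0.21) and LRRC4C, a netrin-G ligand of synapses (0.26). Nearest to EPHA6 were RALYL (0.27), EPHA3 itself (0.33) and GCG, the glucagon gene (0.33). In the other direction, 3 genes were nearer to EPHA3 than EPHA6 was. With 5 arrays in 2 groups, such nearness is mostly a similar group difference: the 4 genes differed by 1.56, 1.42, 1.53 and 1.26 in the order PCDH20, RALYL, LRRC4C and GCG.

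Because several EPHA receptors are best known from neurons, neural markers were set beside them. Of 7 listed, 6 were measured and 1 passed: MAP2, a microtubule protein of dendrites, which rose by 0.84 (limma adjusted p = 0.0205). The other 5 did not pass. Differences were positive in 2 and negative in 4, and GFAP (-0.67), SYP (-0.27), GAP43 (-0.19) and STMN2 (-0.17) were the negative ones. With 16 taken off, the summed intensity of the 6 markers was 200.7 and 292.7 in shControl and 273.3 to 302.3 in shRB. The groups overlapped in this sum. On the log2 scale GFAP read 5.90 and 7.05 in shControl and 5.71, 5.97 and 5.72 in shRB. Its groups overlapped, and its high value on shControl replicate 2 raised the larger shControl sum. Nothing is therefore read from the overlap of the sums. The part of these markers in the EPHA3 and EPHA6 result was not tested.

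The receptors with negative differences were EPHA5, EPHA10 and EPHA2. EPHA5, a receptor of the developing brain, had log2 intensities of 5.10 and 5.49 in shControl and 4.77, 4.94 and 4.65 in shRB. EPHA10, whose kinase domain is inactive, read 4.61 and 5.13 against 4.44, 4.34 and 4.45. In both genes the shRB arrays were all lower, but the groups were only 0.16 apart, less than the 0.39 and 0.52 that separated the shControl arrays. The differences were -0.51 (95% interval -0.88 to -0.13, adjusted p = 0.158) for EPHA5 and -0.46 (-0.84 to -0.07, adjusted p = 0.204) for EPHA10, by limma. Their sizes also depend on the constant. With 16 subtracted and 4 added before the logarithm they were -0.80 (limma adjusted p = 0.231) for EPHA5 and -0.87 (adjusted p = 0.247) for EPHA10. EPHA10 passed without shControl replicate 1 (-0.72, adjusted p = 0.049) and differed by -0.20 without shControl replicate 2, the range over all its alternatives being an adjusted p of 0.049 to 0.531. EPHA5 passed in none of its 13, with -0.70 and -0.31 without shControl replicate 1 and 2.

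EPHA2, the receptor of ephrin-A1 most often studied in carcinomas, read 5.08 and 5.54 in shControl and 4.82, 5.14 and 4.94 in shRB. The groups overlapped, since shRB replicate 2 exceeded shControl replicate 1. The difference was -0.35 (95% interval -0.74 to 0.04, limma adjusted p = 0.326), negative in all 13 alternatives that could be computed. Its size moved with the control array, from -0.58 without shControl replicate 1 to -0.12 without shControl replicate 2.

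EPHA4, which binds ephrins of both classes, was close to the floor in shControl, with a mean of 4.26. It read 4.16 and 4.35 in shControl and 4.62, 4.65 and 4.49 in shRB. The shRB arrays all lay higher, by a gap of 0.14. The difference of 0.33 (95% interval 0.00197 to 0.66) did not pass (limma adjusted p = 0.274). Its size rests on the constant: with 16 subtracted and 4 added it was 0.77 (adjusted p = 0.217), and on the linear scale with 16 taken off the group means were 3.17 and 8.07.

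EPHA1, EPHA7 and EPHA8 overlapped between groups. EPHA1, an epithelial receptor, varied most among replicates, at 5.32 and 4.71 in shControl and 5.79, 4.78 and 5.22 in shRB. Its shRB range of 1.01 exceeded its difference of 0.25 (95% interval -0.34 to 0.84, limma adjusted p = 0.66), which turned to -0.05 without shControl replicate 2. EPHA7, a receptor of brain patterning that also exists in truncated forms, read 5.87 and 5.61 against 5.89, 5.76 and 5.68, a difference of 0.04 (-0.30 to 0.38, adjusted p = 0.927). EPHA8 read 4.67 and 4.92 against 5.03, 4.89 and 4.69, a difference of 0.08 (-0.28 to 0.43, adjusted p = 0.84).

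In all, the arrays of 5 of the 9 receptors were fully separated by group, 3 with shRB above and 2 with shRB below. EPHA3 and EPHA6 are among those above, so nothing is read from this count. Of the other 7 receptors, 3 were separated, 1 with shRB above and 2 with shRB below. Over all genes 36.0% were so separated, and separation of these few arrays is common in the table. The filter on dim genes, set at the median over genes of the mean over all arrays, kept EPHA3, EPHA6 and EPHA7 and removed the other 6. It says nothing of transcript levels between the genes, and the means of EPHA3 and EPHA6 include their shRB arrays.

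**Figure D4:**
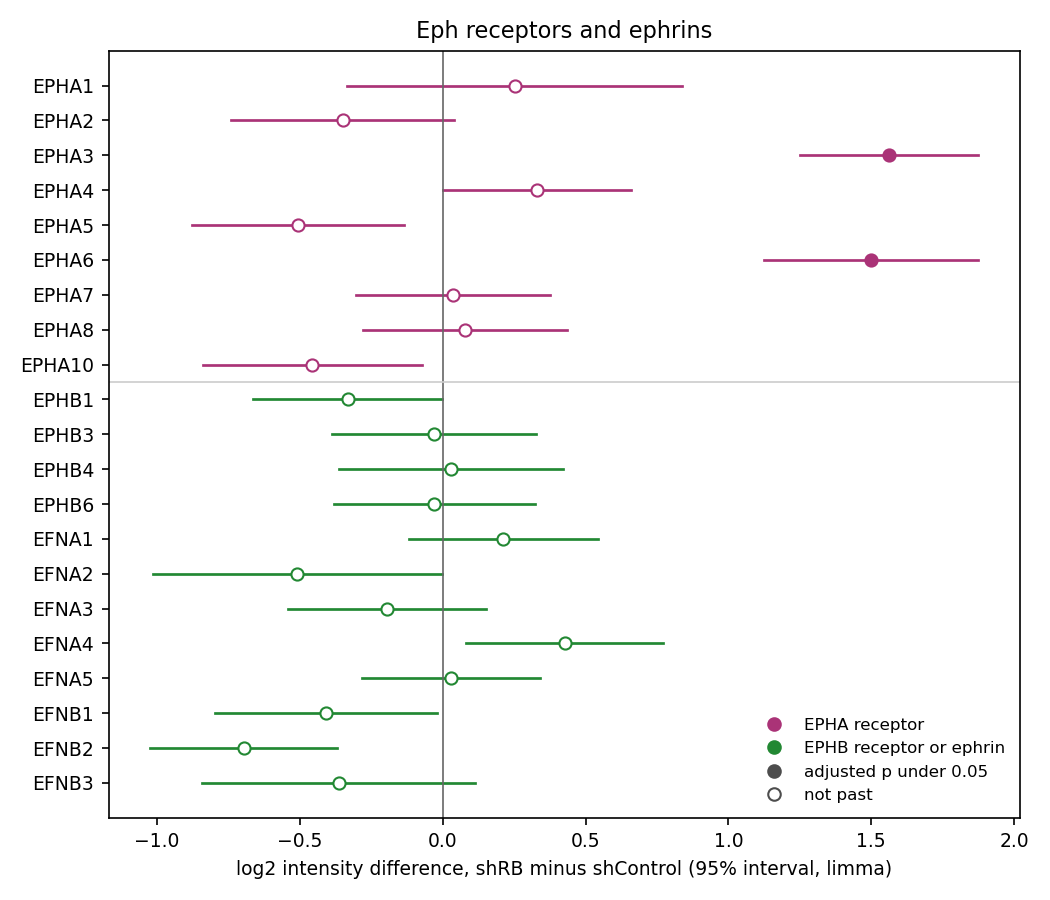
Log2 difference, shRB minus shControl (horizontal axis), with its 95% interval from limma for the 9 EPHA receptors (purple) and the 12 measured EPHB receptors and ephrins (green); filled points have an adjusted p under 0.05. EPHA3 (1.56) and EPHA6 (1.50) are the filled points, and EFNB2 (-0.70) lies farthest to the left.

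Among the partners of the EPHA receptors, none of the 12 measured EPHB receptors and ephrin ligands of 13 listed passed (limma). At an unadjusted p under 0.05 stood 5 of the 12 (41.7%), against 18.1% of all genes. Differences were positive in 4 and negative in 8, with a median of -0.11 against 0.02 over all genes. EFNB2 encodes ephrin-B2, a ligand of EPHB4 in vessel formation that also binds EPHA4. It stood at 7.54 and 7.51 in shControl and 6.73, 6.78 and 6.97 in shRB. The groups were 0.54 apart, and the difference of -0.70 (95% interval -1.02 to -0.37) had an adjusted p of 0.0538. It passed in 3 of 14 alternatives and missed the threshold in each fit without 1 array, with adjusted p-values of 0.0601 to 0.227. The other ephrin-B ligands, EFNB1 (-0.41, adjusted p = 0.254) and EFNB3 (-0.37, adjusted p = 0.403), were also negative and did not pass.

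None of the 5 ephrin-A ligands passed. EFNA5, ephrin-A5, is the ligand that EPHA3 binds with high affinity. It had log2 intensities of 9.21 and 9.16 in shControl and 9.23, 9.23 and 9.19 in shRB. These arrays overlapped, and the difference of 0.03 had a 95% interval of -0.28 to 0.34 (limma adjusted p = 0.939). EFNA4 read 6.25 and 6.06 against 6.48, 6.51 and 6.76, with all shRB arrays higher, and differed by 0.43 (adjusted p = 0.19). EFNA1, a ligand of EPHA2, differed by 0.21 (adjusted p = 0.491) and EFNA3 by -0.20 (adjusted p = 0.553). EFNA2 differed by -0.51 (adjusted p = 0.274), with shControl arrays 0.67 apart.

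Of the 4 measured EPHB receptors, which mainly bind ephrin-B ligands, 3 fell under the filter on dim genes. EPHB1 differed by -0.33 (limma adjusted p = 0.272) with all shRB arrays lower. EPHB3 (-0.03), EPHB4 (0.03) and EPHB6 (-0.03), the last with an inactive kinase domain, had adjusted p-values of 0.945 to 0.952 and overlapped between groups. EPHB2 had no named probe set.

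Of 54 listed genes that act with Eph receptors inside the cell or cut ephrins at the surface, 36 were measured and none passed (limma). At an unadjusted p under 0.05 stood 10 of the 36 (27.8%), against 18.1% of all genes. Differences were positive in 18 and negative in 18, with a median of -0.0029. SRC, a kinase recruited to active Eph receptors, read 6.98 and 7.04 in shControl and 6.48, 6.44 and 6.29 in shRB, with no overlap, and differed by -0.61 (adjusted p = 0.0792). It passed in 2 of 14 alternatives. No measured exchange factor of the ephexin family, which acts downstream of Eph receptors, passed. ARHGEF15 stood at 0.76 (adjusted p = 0.125), ARHGEF19 at 0.58 (adjusted p = 0.147) and ARHGEF16 at -0.49 (adjusted p = 0.169). NGEF stood at -0.39 (adjusted p = 0.223), ARHGEF26 at 0.33 (adjusted p = 0.261) and ARHGEF5 at 0.14 (adjusted p = 0.673). ARHGEF15 passed without shControl replicate 2 (1.11), but stood at 0.42 without shControl replicate 1 and at 0.26 with its probe sets averaged. The kinase ABL2 (0.62 with all arrays, adjusted p = 0.154) and ARHGEF16 passed without shControl replicate 1, at 1.00 and -0.73, and stood at 0.23 and -0.25 without shControl replicate 2. The protease ADAM10, which binds EPHA3 and cuts ephrin-A5, had a difference of -0.40 (adjusted p = 0.211), with all shRB arrays lower.

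Receptor tyrosine kinases of other families were set beside the EPHA class. Of 44 listed, 35 were measured, 0 were higher and 1 was lower at an adjusted p under 0.05 (limma), with a median difference of -0.03. That gene was IGF1R, the insulin-like growth factor receptor, at 7.43 and 7.24 in shControl and 6.22, 6.45 and 6.19 in shRB. It fell by 1.05 on the log2 scale (adjusted p = 0.0112), with all shRB arrays lower, but lost the call when shRB replicate 1, 2 or 3 was left out (adjusted p of 0.0622 to 0.132). FGFR1 (0.58, adjusted p = 0.102), a receptor of fibroblast growth factors, and KIT (-0.52, adjusted p = 0.18), the stem cell factor receptor, did not pass. KIT, FGFR4 and STYK1 passed without shControl replicate 1, at -0.81, -0.89 and 0.98, but stood at -0.24, 0.20 and -0.24 without shControl replicate 2. With all arrays FGFR4 differed by -0.35 (adjusted p = 0.511) and STYK1 by 0.37 (adjusted p = 0.515), so their sign depends on the control array. EGFR (-0.06, adjusted p = 0.873) and MET (adjusted p = 0.998), growth factor receptors of epithelia, overlapped between groups. Whether the EPHA class differs from these families was not tested.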

How the data were processed

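Biotin-labelled cDNA from 5 samples was hybridised to single-colour arrays. The authors deposited linear probe set intensities, per the table's values, with the summary method, normalization and build not given in the sources used here. The deposited table holds 44607 probe sets, of which 15835 carry 1 gene symbol, 0 several, and 28772 have none. RefSeq (GRCh38.p14) supplied current symbols by Entrez identifier for all 15835, and 1 probe set per gene gave 14812 genes. Array medians were 26.6 to 28.1. Their number limits the precision.

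Groups came from the sample titles. Log2 values were fitted with limma 3.58.1 in R 4.3.3 (lmFit, eBayes, 2 groups, no covariates, two-sided) over all genes with Benjamini-Hochberg adjustment and a threshold of 0.05. The test was tested on simulated data.

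The members, lists, rule for named genes and alternatives were chosen with earlier results of these data known. The rule took all Eph receptors and ephrins, RB1, genes past the threshold and the 3 smallest p in the partner and kinase lists, and the neighbours and 3 nearest profiles of EPHA receptors past the threshold. Further partners, kinases and markers were named after their values were seen. The 14 alternatives comprise 9 other settings and leaving out each of the 5 arrays. Receptors' proteins were not analysed here.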

Additional observations from a re-analysis of the deposited data

How the results depend on the processing

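EPHA3 and EPHA6 were both called in every alternative run except the subtraction of 16 with 4 added, where 1 EPHA receptor, EPHA3, passed. Without single arrays 2 to 3 EPHA receptors passed, EPHA10 being the third without shControl replicate 1; in fits with 1 shControl array, that array is assumed to vary like the shRB arrays. Over all genes 159 passed as reported, 13 with 16 subtracted, 385 with genes under the median intensity left out (7406 tested), 426 with an intensity trend and robust variances, 88 with array weights, 340 with every probe set on its own (44607 tested) and 22 to 411 without single arrays. Of the EPHB receptors and ephrins 1, EFNB2, passed after subtraction of array medians, without dim genes and with the trend, and 0 without any single array. Of the signalling partners 1, SRC, passed without dim genes and with the trend, and 0 to 2 passed without single arrays. Of the other receptor tyrosine kinases 0 passed with 16 subtracted, and 0 to 4 without single arrays. RB1 differed by -0.54 and passed without dim genes (adjusted p = 0.0489); without single arrays it differed by -0.60 to -0.49. With the replicate number as a block, 24 genes passed, 8 higher and 16 lower. Among them were 2 EPHA receptors (EPHA3 1.58, EPHA6 1.51) and 0 other receptor tyrosine kinases. No shControl array is numbered 3, so shRB replicate 3 adds nothing to these differences, which equal those of the fit without it. The labels do not say that a number marks a shared culture. Deviations of same-numbered arrays from their group means correlated at -0.02 and 0.05 across genes. With 2 shControl arrays, their deviations mirror each other, so these values cannot tell whether same-numbered arrays share a culture or day. EPHA1, EPHA7 and EPHA8 each changed sign in 2 alternatives without passing. The 6 EPHA receptors below the median intensity have no value in the fit without dim genes. Their group means lay between 4.26 (EPHA4, shControl) and 5.31 (EPHA2, shControl), with the floor at 4. Beyond the number of genes tested or of arrays fitted, the cause of these shifts was not tested.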

Other observations

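Antisense transcripts are annotated at 2 EPHA loci and were measured by probe sets of their own, named here after their values were seen. EPHA1-AS1 had log2 intensities of 4.05 and 4.48 in shControl and 4.20, 4.55 and 4.31 in shRB, a difference of 0.09 (limma adjusted p = 0.837). EPHA5-AS1 stood at 4.28 and 4.82 against 4.82, 4.89 and 4.59, a difference of 0.21 (adjusted p = 0.577), while EPHA5 itself differed by -0.51. Both transcripts lay near the floor and overlapped between groups, and whether the labelling kept strand is not given in the sources used here.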
